A study of Mus musculus with 4 samples.

Results

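Chromatin modifiers and remodellers are the enzymes and subunits that write, erase and read marks on histones and DNA, or that move nucleosomes. They were taken here by name, as the genes whose symbol starts with Kdm, Kmt, Setd, Hdac, Ezh, Brd, Smarc or Dnmt, or with Sirt, Kat, Chd or Tet and a digit, without the antisense gene Dnmt3aos. Each gene was represented by its most abundant RefSeq transcript record. The rule found 103 genes in 12 families, of 23783 genes in the table, and 55 of them had enough counts for a test. The rule itself used names and not measured values, but it was chosen with earlier results of these data known.

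Expression was measured by RNA-seq in BV-2 cells, an immortalised mouse microglial line, either treated with lipopolysaccharide (LPS) at 10 ng/ml for 4 h or left as 4 h controls, with 2 libraries per group. LPS is a bacterial cell wall component that microglia and macrophages sense through Toll-like receptor 4. The labels name no separate cultures for the replicates, so p-values measure only the spread between these libraries, which may be technical. A passage on shaken mixed glial flasks also stands in the growth text, although every sample carries the name of the line.

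DNA in the nucleus is wound around histone proteins, and the chemical marks on both help to set which genes can be read. Lysine acetyltransferases (Kat) add acetyl groups to histone tails, deacetylases (Hdac, Sirt) remove them, and bromodomain proteins (Brd) bind them. Lysine methyltransferases (Kmt, Setd, Ezh) and demethylases (Kdm) do the same for methyl groups, Dnmt enzymes methylate cytosines in DNA, and Tet enzymes oxidise those methyl groups. ATP-driven remodellers (Chd and the Smarc subunits) slide, evict or space nucleosomes. In macrophages, this machinery is known for setting how strongly inflammatory genes answer LPS.

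Library totals were 3082538 to 3368693 counts with LPS and 2778686 to 3059196 in controls, and the 5 most abundant records held 53.4% to 67.5% of every library. The remaining counts were 1327707 to 1423391 with LPS and 902176 to 1425303 in controls, so the first control library was the shallowest for all other genes. Of 12 microglial markers, 7 were tested. The summed level of all 12 was 3728 to 3829 normalised counts with LPS and 3129 to 4052 in controls. Itgam, which has 2 records, was listed at 0 in all 4 libraries. Aif1, in a single record, had 4 and 3 counts with LPS and 3 and 7 in controls. Cx3cr1, also in a single record, had 9 and 8 with LPS and 4 and 2 in controls. Ptprc and Trem2, which have several records, were also too low to test. How reads shared by records were counted is not stated, so the low counts of Itgam, Ptprc and Trem2 carry no statement about their expression. Spi1 was the 1 marker that passed the test, upward. Markers of astrocytes, neurons, oligodendrocytes and fibroblasts each summed to at most 2.77 normalised counts in any library, with Gfap, Rbfox3, Mbp and Col1a1 at 0. Endothelial markers summed to 364 and 386 with LPS and to 459 and 444 in controls, nearly all of it Kdr, with Pecam1, Cldn5 and Tek at 0. How many records the markers of other cell types have is not given here, so a value of 0 alone does not show absence. In RNA from a whole culture, fewer cells of a type and less RNA per cell cannot be told apart.

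Which chromatin genes could be measured followed how many transcript records the table gave them. Of the 60 genes with 1 record, 52 were tested (86.7%), against 3 of the 43 genes with 2 or more records (6.98%), namely Kdm4a, Hdac9 and Smarca2. Across every gene in the table the shares were 34.8% of 19018 genes with 1 record and 6.09% of 4765 genes with more. The 48 genes without a test had at most 37 counts over the 4 libraries, and 22 of them had none.

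Several of the genes at or near 0 belong to machinery that most dividing cells use. Ezh2, the catalytic subunit of Polycomb repressive complex 2, was listed at 0 in all 4 libraries, as were Smarca4, the ATPase of BAF complexes, and Smarcb1, a core BAF subunit. The same held for Setdb1, a histone H3 lysine 9 methyltransferase, for the deacetylase Sirt1, the acetyltransferase Kat2a and the DNA methyltransferase Dnmt3a. Each of these genes had 2 or more records. The 2 records of Ezh2 had 15 and 27 exon bases that the other record lacked. Over all 43 genes with several records, 51 of 128 records had no exon base of their own, and 47 of those 51 had 0 counts in all libraries. Of the 77 records with at least 1 base of their own, 48 had 0 counts. How the authors' counting treated reads shared by records was not stated in the sources used here, so a 0 for such a gene carries no statement about its expression. Tet1 differs, since its 14369 bases stand in a single record that also had 0 counts, which allows up to 2.77 and 2.93 normalised counts in the LPS libraries and up to 4.22 and 2.53 in the control libraries.

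**Figure D1:**
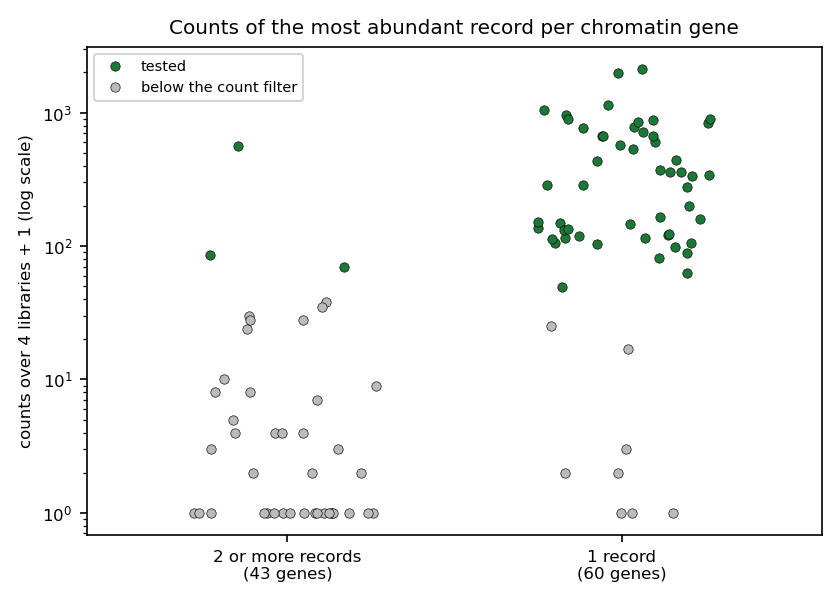
Counts summed over the 4 libraries (log scale, 1 added) for the most abundant record of each of the 103 chromatin genes, split by how many records the table gives the gene. Of the 60 genes with 1 record 52 lie among the tested (green), and of the 43 genes with 2 or more records 3 do.

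LPS changed few of the measurable chromatin genes. The histone demethylases Kdm4a and Kdm6b and the DNA dioxygenase Tet2 rose, and the deacetylase Hdac9 fell, so 4 of 55 genes passed the test (7.27%), against 5.53% of all 6981 records tested. By direction, 3 of 55 rose (5.45%, with 3.82% of all records higher) and 1 of 55 fell (1.82%, with 1.7% of all records lower). These shares lie near those of the whole table. All 4 changes were at least 2-fold. The test was edgeR's quasi-likelihood test with Benjamini-Hochberg adjustment over all records and a threshold of 0.05, and levels are normalised counts, scaled to a mean effective library size of 3108147.

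The median log2 fold change of the 55 genes was -0.07, against -0.01 for all records, with 22 genes above 0 and 33 below. Both LPS libraries lay above both control libraries in 14 genes (25.5%, against 21.4% of all records) and below both in 13 (23.6%, against 21.9%), and the groups overlapped in 28. A gene without a call is not thereby shown to be stable. Of the 51 such genes, 36 had a 95% interval within 2-fold in either direction, and in 15 the interval reached 2-fold or more.

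**Figure D2:**
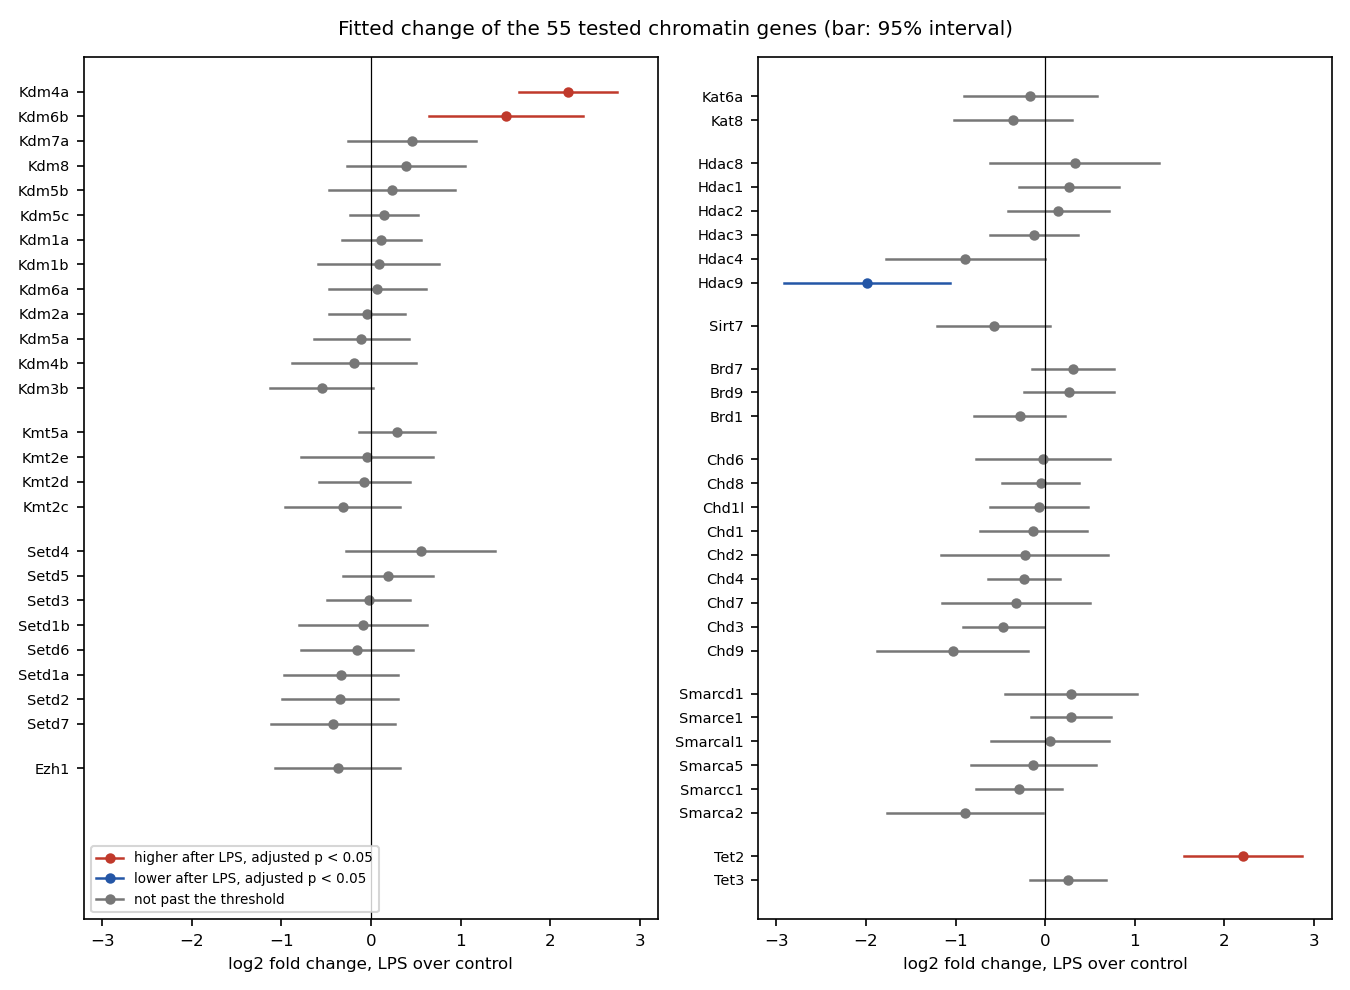
Fitted log2 fold change (LPS over control, 2 libraries each) with its 95% interval for the 55 tested chromatin genes, grouped by family. The red genes Kdm4a, Tet2 and Kdm6b lie above 0, the blue gene Hdac9 lies below, and the 51 grey genes lie between -1.03 and 0.56.

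Among the histone demethylases, 13 of 18 genes were tested and 2 rose. Kdm4a removes methyl groups from lysines 9 and 36 of histone H3. It was counted in record NM_001161823, whose linked transcript runs on chromosome 4 from 118136957 to 118180043 (mm10). Kdm4a had 212 and 237 normalised counts in the LPS libraries, against 59.1 and 40.5 in the control libraries. Both LPS libraries lay far above both control libraries, with no overlap. The means were 224 ± 17.6 with LPS and 49.8 ± 13.1 in controls (SD, n = 2 each), a log2 fold change of 2.20 (SE 0.25, edgeR adjusted p = 0.000192). Of the 4663 exon bases of this record, 1724 belong to no other Kdm4a record. The second Kdm4a record, NM_172382, had 340 bases of its own and 2 and 0 counts with LPS and none in controls. Per kilobase of transcript, Kdm4a stood at 48.1 normalised counts with LPS and 10.7 in controls. That placed it 11th of the 55 genes with LPS and 31st in controls. The division used all 4663 bases. How reads of the bases shared with the second record were counted is not stated, so this level and rank may be too low.

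Its close relative Kdm4b, which acts on the same lysines, had 38.8 and 31.3 normalised counts with LPS, against 49.2 and 32.9 in controls. The log2 fold change of Kdm4b was -0.19 (SE 0.32, edgeR adjusted p = 0.893), and the groups overlapped. Kdm4c and Kdm4d had too few counts to test.

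Kdm6b, also called Jmjd3, removes methyl groups from lysine 27 of histone H3 and is known in mouse macrophages as a gene induced by LPS. It was counted in record NM_001017426, whose linked transcript runs on chromosome 11 from 69398508 to 69413675 (mm10). Kdm6b had 28.7 and 42.1 normalised counts with LPS, against 15.5 and 10.1 in controls. Both LPS libraries lay above both control libraries. The means were 35.4 ± 9.47 with LPS and 12.8 ± 3.78 in controls (SD, n = 2 each), and the log2 fold change was 1.51 (SE 0.39, edgeR adjusted p = 0.0476). The call is close to the threshold and rests on 31 and 43 counts with LPS and 11 and 12 in controls. It was lost in 6 of the 13 alternatives that gave a value, with adjusted p up to 0.512 without LPS replicate 2. Kdm6bos is annotated on the opposite strand across 492 exon bases of the counted Kdm6b record, and the strand setting of the counting is not given in the sources used here, so reads of the pair cannot be told apart.

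Kdm6a, the X-linked demethylase of the same lysine, was the more abundant of the pair in both groups. Kdm6a had 210 and 237 normalised counts with LPS, against 156 and 263 in controls, and the groups overlapped (log2 fold change 0.07, SE 0.25, edgeR adjusted p = 0.956). Per kilobase, Kdm6a stood at 37.6 normalised counts with LPS and 35.3 in controls, against 5.31 with LPS and 1.92 in controls for Kdm6b.

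None of the other tested demethylases passed. Kdm5c, which acts on lysine 4 of histone H3, had 548 and 558 normalised counts with LPS, against 487 and 511 in controls (log2 fold change 0.15, edgeR adjusted p = 0.832). Kdm1a, the flavin-dependent demethylase of the CoREST complex, had 210 and 199 with LPS, against 207 and 172 in controls (0.11, adjusted p = 0.904). Kdm7a had 99.8 and 148 normalised counts with LPS, against 56.3 and 118 in controls, and the groups overlapped.

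Tet2 oxidises methylated cytosines in DNA, and in mouse macrophages it is known to bring Hdac2 to the Il6 gene late in the inflammatory response. Tet2 was counted in record NM_001040400, whose linked transcript runs on chromosome 3 from 133463679 to 133544390 (mm10). It had 242 and 288 normalised counts with LPS, against 35.2 and 75.1 in controls. Both LPS libraries lay far above both control libraries, with no overlap. The means were 265 ± 32.0 with LPS and 55.1 ± 28.2 in controls (SD, n = 2 each), and the log2 fold change was 2.20 (SE 0.30, edgeR adjusted p = 0.000838). It was 2.90 without control replicate 2 and 1.82 without control replicate 1, and it passed the test in both. The antisense gene Gm42567 overlaps the annotated Tet2 gene but covers 0 exon bases of the counted record.

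Tet3, a related dioxygenase, had 228 and 245 normalised counts with LPS, against 208 and 191 in controls. Its LPS libraries lay above the control libraries by less than the threshold required (log2 fold change 0.25, SE 0.19, edgeR adjusted p = 0.666). Per kilobase of transcript, Tet2 stood at 26.4 and 31.3 normalised counts with LPS, against 3.83 and 8.18 in controls, and Tet3 at 20.9 and 22.5 with LPS, against 19.1 and 17.5 in controls. Tet2 was thus above Tet3 in both LPS libraries and below Tet3 in both control libraries. The 4 Dnmt genes had too few counts to test. Dnmt1, which copies methylation to new DNA strands, had 0 and 4 counts with LPS and 1 and 2 in controls over a gene with several records.

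Hdac9 is a class IIa deacetylase that binds transcription factors of the MEF2 family. Its most abundant record was NM_024124, whose linked transcript runs on chromosome 12 from 34371497 to 34528874 (mm10). Hdac9 had 8.32 and 8.80 normalised counts with LPS, against 23.9 and 42.2 in controls. Both LPS libraries lay below both control libraries, and the control libraries were far apart. The means were 8.56 ± 0.340 with LPS and 33.1 ± 12.9 in controls (SD, n = 2 each), and the log2 fold change was -1.99 (SE 0.42, edgeR adjusted p = 0.0165). The counts behind it were 9 and 9 with LPS and 17 and 50 in controls. A further Hdac9 record, NM_001271386, had 5 and 2 counts with LPS and 9 and 6 in controls. The call was lost in DESeq2 (adjusted p = 0.0928), without control replicate 2 (0.0657), without LPS replicate 1 (0.0594) and without LPS replicate 2 (0.0523).

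**Figure D3:**
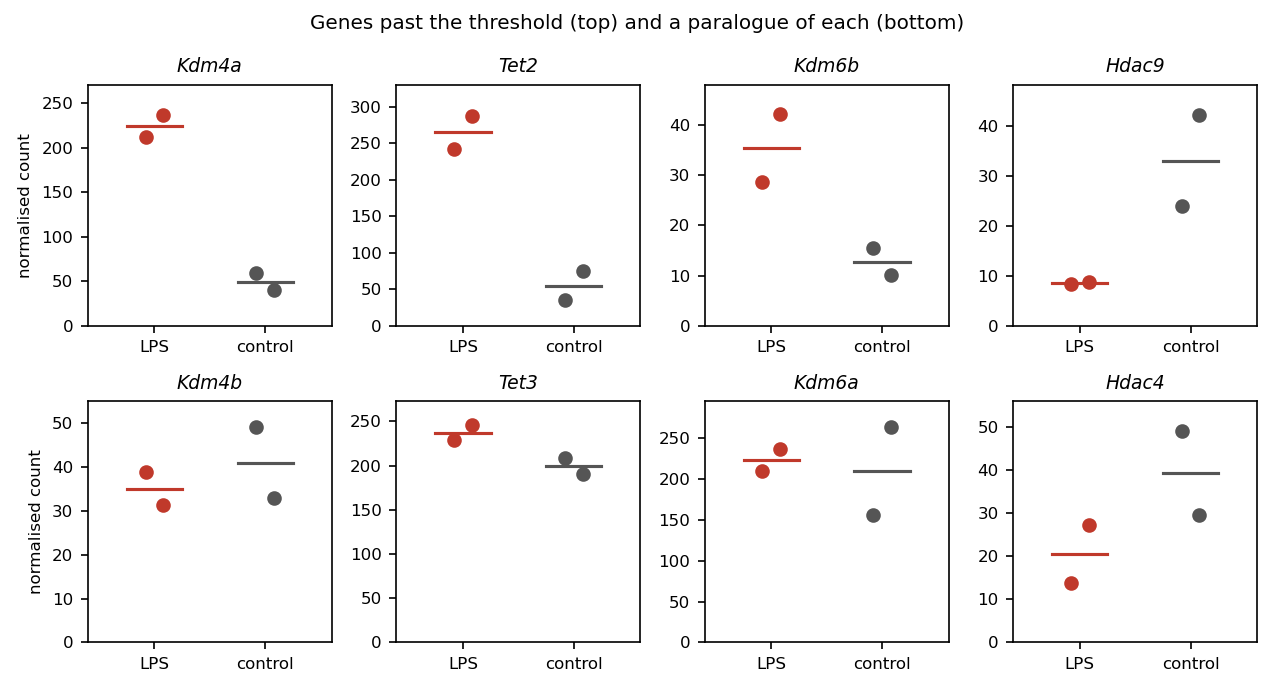
Normalised counts of Kdm4a, Tet2, Kdm6b and Hdac9 beside related genes of the same families in each library, LPS on the left and control on the right of each panel. Kdm4a, Tet2 and Kdm6b are higher in both LPS libraries, Hdac9 is lower in both, and Kdm4b and Kdm6a overlap between groups. Tet3 is also higher and Hdac4 lower in both LPS libraries, without passing the test.

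Sequences before the start sites of 3 of these 4 genes were available from RefSeq (GRCm38.p6), and are shown because these genes moved most. Each line gives the 250 bases before the annotated start on the gene's strand, with matches to the AP-1 consensus TGANTCA in capitals.
Kdm4a, chr4:118180044-118180293, minus strand: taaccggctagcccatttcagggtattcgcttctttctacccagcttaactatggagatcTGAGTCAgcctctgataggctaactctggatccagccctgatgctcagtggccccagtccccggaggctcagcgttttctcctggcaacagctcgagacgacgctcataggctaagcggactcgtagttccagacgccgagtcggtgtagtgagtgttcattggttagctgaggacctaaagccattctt
Tet2, chr3:133544391-133544640, minus strand: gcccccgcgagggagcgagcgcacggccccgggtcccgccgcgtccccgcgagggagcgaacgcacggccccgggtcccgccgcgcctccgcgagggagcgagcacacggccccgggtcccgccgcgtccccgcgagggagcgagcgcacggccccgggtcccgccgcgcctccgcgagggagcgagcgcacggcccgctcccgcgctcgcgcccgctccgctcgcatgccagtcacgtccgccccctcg
Hdac9, chr12:34528890-34529139, minus strand: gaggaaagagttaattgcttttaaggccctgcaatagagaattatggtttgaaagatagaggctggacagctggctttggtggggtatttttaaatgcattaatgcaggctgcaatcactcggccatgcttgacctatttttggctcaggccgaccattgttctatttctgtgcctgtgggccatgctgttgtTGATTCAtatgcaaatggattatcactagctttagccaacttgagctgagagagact

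The Kdm4a window, which also takes 50 bases after the start, held the AP-1 match TGAGTCA at -190 to -184, counted from the start site as 0, and 13 CpG sites at 53.3% GC. The Tet2 window held no match, and it had 57 CpG sites at 81.3% GC. The printed Hdac9 window, whose start site lies 15 bases from that of the counted transcript, held TGATTCA at -57 to -51 and 3 CpG sites. A second Hdac9 window, 388221 bases from that start, held 0 CpG sites and no match to any of the motifs. None of the 3 printed windows held a match to the NF-kB consensus, to GAAANNGAAA (the core of interferon-response elements) or to the palindromic CRE. All 4 motifs were searched on both strands, and they may overlap. Over all 32851 windows, 7.81% held the AP-1 letters, 8.46% the NF-kB consensus, 3.44% the interferon-response core and 1.79% the CRE. Of the 48 windows of the 40 tested chromatin genes with an entry, 5 held AP-1, 5 NF-kB, 1 the interferon-response core and 0 the CRE. A match describes letters in a window and is not evidence of binding, and no match says only that the letters are absent from it.

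No histone methyltransferase passed the test. In edgeR, 4 of 7 Kmt, 8 of 9 Setd and 1 of 3 Ezh genes were tested, 0 were called and 0 had an unadjusted p below 0.05, and DESeq2 and limma-voom also called 0. Kmt5a, which places the single methyl group on lysine 20 of histone H4, had 262 and 229 normalised counts with LPS, against 207 and 195 in controls. Both LPS libraries lay above the controls, but the difference did not pass (log2 fold change 0.29, edgeR adjusted p = 0.589). Kmt5a was the most abundant of the 55 genes per kilobase of full transcript with LPS, at 89.5 normalised counts, and had 73.3 in controls. Setd2, which trimethylates lysine 36 of histone H3, had 52.7 and 72.4 normalised counts with LPS, against 59.1 and 96.2 in controls, and overlapped. Setd4 had the highest log2 fold change among genes without a call, 0.56 (edgeR adjusted p = 0.596), from 31.4 and 19.6 normalised counts with LPS and 16.9 and 17.7 in controls. Setd3, which methylates a histidine of actin, had 145 and 136 with LPS, against 132 and 153 in controls. Ezh1, the second Polycomb catalytic subunit, had 26.8 and 25.4 normalised counts with LPS, against 39.4 and 29.5 in controls (log2 fold change -0.37, adjusted p = 0.73).

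Of 8 Kat acetyltransferases, Kat6a and Kat8 could be tested, and neither was called or had an unadjusted p below 0.05 in edgeR, DESeq2 or limma-voom. Kat8, which acetylates lysine 16 of histone H4, had 27.7 and 26.4 normalised counts with LPS, against 35.2 and 34.6 in controls (log2 fold change -0.36, edgeR adjusted p = 0.715). Its LPS libraries lay below the controls by an amount that did not pass the test. Kat5 had 1 and 2 counts with LPS and 1 and 3 in controls, and Kat2b had 0 and 2 with LPS and 1 and 5 in controls, too few to read.

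None of the class I deacetylases passed the test. Hdac1 had 133 and 151 normalised counts with LPS, against 88.6 and 143 in controls (log2 fold change 0.27, edgeR adjusted p = 0.772). Hdac2 had 153 and 187 with LPS, against 114 and 189 in controls (0.15, adjusted p = 0.904). Hdac3, the enzyme of the NCoR corepressor complex, had 176 and 173 with LPS, against 225 and 158 in controls (-0.12, adjusted p = 0.909). All 3 overlapped between the groups. Hdac4, a class IIa relative of Hdac9, had 13.9 and 27.4 normalised counts with LPS, against 49.2 and 29.5 in controls. Both of its LPS libraries lay below both controls (log2 fold change -0.89, SE 0.40), with an unadjusted p of 0.0484 and an edgeR adjusted p of 0.317. Sirt7 was the 1 of 7 sirtuins tested, with 28.7 and 30.3 normalised counts with LPS, against 45.0 and 43.0 in controls (-0.57, adjusted p = 0.392). Its LPS libraries lay below the controls without passing the test. Sirt6, at 10 and 9 counts with LPS and 3 and 5 in controls, was below the filter.

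Of 9 Brd genes 3 were tested, and edgeR, DESeq2 and limma-voom called 0 and gave 0 an unadjusted p below 0.05. Brd7, a bromodomain subunit of PBAF complexes, had 312 and 312 normalised counts with LPS, against 210 and 290 in controls (log2 fold change 0.31, edgeR adjusted p = 0.589). Both LPS libraries were above the controls, and the control libraries were further apart. Brd2, a reader of acetylated histones, had 13 and 4 counts with LPS and 6 and 4 in controls in its most abundant record, below the filter.

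All 9 tested Chd remodellers had a log2 fold change below 0, with a median of -0.23, where 48.3% of all records lay above 0. In edgeR 0 of 9 passed the test, while 2 had an unadjusted p below 0.05, beside 8 of all 55 chromatin genes. The share of all records under 0.05 before adjustment was not counted, so the 2 genes are not read as a family result. DESeq2 and limma-voom also called 0. Under the alternatives, 6 to 9 of the 9 stayed below 0, and 5 of 5 did where a mean of at least 50 was required. The family median ranged from -0.32 to -0.03 there. It was -0.11 with a GC and length trend removed and nearest 0 without LPS replicate 1. Chd9 had 14.8 and 19.6 normalised counts with LPS, against 23.9 and 43.9 in controls (log2 fold change -1.03, SE 0.38, edgeR adjusted p = 0.2). Chd3, named after its values were seen, is an ATPase of the NuRD complex and had 145 and 142 with LPS, against 215 and 183 in controls (-0.47, adjusted p = 0.301). In both genes the LPS libraries lay below the controls. Chd4, the other NuRD ATPase, had 483 and 448 normalised counts with LPS, against 601 and 498 in controls (-0.24, adjusted p = 0.671). Per kilobase Chd4 stood at 69.5 normalised counts with LPS and 82.0 in controls, the second highest of the 55 genes in controls.

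Of the 14 Smarc genes 6 were tested, and edgeR, DESeq2 and limma-voom called 0. In edgeR 1 had an unadjusted p below 0.05, a share that was not counted over all records. Smarca2, the alternative ATPase of BAF complexes, had 11.1 and 13.7 normalised counts with LPS, against 28.1 and 19.4 in controls. Both LPS libraries were lower (log2 fold change -0.89, unadjusted p = 0.0449, edgeR adjusted p = 0.307). Smarce1, a BAF subunit with an HMG domain, had 232 and 238 with LPS, against 214 and 173 in controls (0.29, adjusted p = 0.61). Smarca5, the ISWI ATPase, had 85.1 and 87.0 normalised counts with LPS, against 57.7 and 126 in controls, so the controls lay on both sides of the LPS libraries.

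Other genes shared the wide gap between controls seen in Smarca5. Among the 55 genes, the 2 control libraries differed by 1.5-fold or more in 16 genes, and the LPS libraries in 5. Across these genes, the log2 ratio of control replicate 2 over replicate 1 had a Spearman rho of -0.70 with the GC content of the transcript, against -0.20 for the LPS pair. Over 6956 records the values were -0.27 for the LPS pair and -0.66 for the control pair. These are descriptions across genes of the same libraries, and genes are not independent replicates. Genes of low GC content were mostly higher in control replicate 2, Tet2 and Hdac9 among them, and Kdm4a and Kdm6b were higher in control replicate 1. The log2 fold change itself had a rho of 0.01 with GC content over the 55 genes. With a GC and length trend removed, Kdm4a, Tet2, Kdm6b and Hdac9 kept their calls, and Tet3 also passed (edgeR adjusted p = 0.0355). That made 5 of 55 chromatin genes called (9.09%), against 11.0% of all records.

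**Figure D4:**
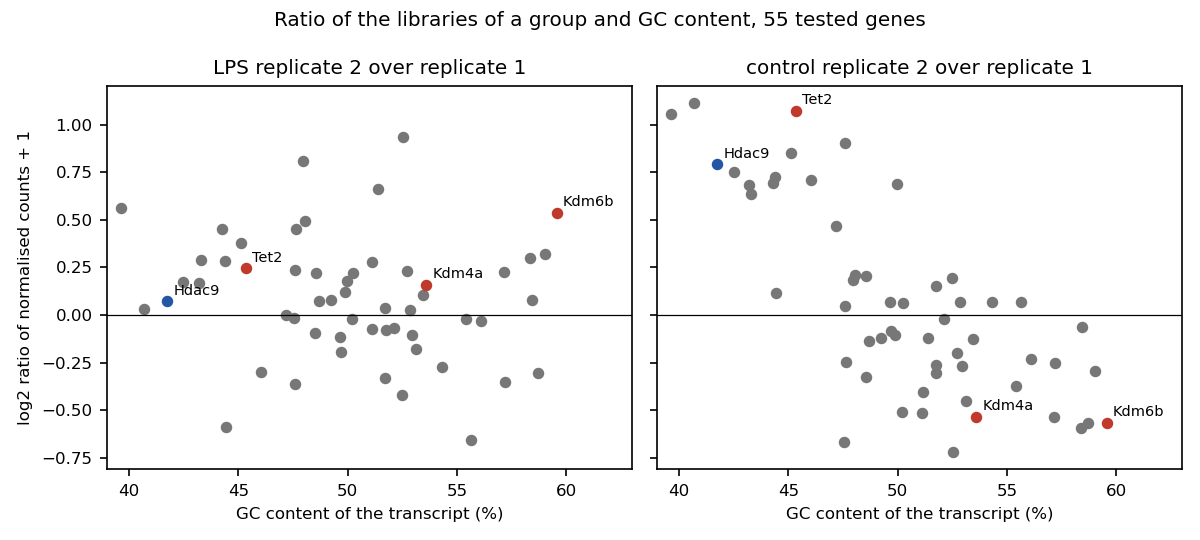
Log2 ratio of the 2 libraries of a group (replicate 2 over replicate 1, normalised counts with 1 added) against transcript GC content for the 55 tested chromatin genes, LPS on the left and control on the right. The control pair shows a downward slope (rho -0.70) that is weaker in the LPS pair (rho -0.20).

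Levels of different genes were compared per kilobase of the full transcript. The counted records of Kdm4a, Hdac9 and Smarca2 share exon bases with a further record of the same gene. How reads of shared bases were counted is not stated, so the levels and ranks of these genes may be too low. The order of the other genes around them could shift accordingly. The 5 most abundant with LPS were Kmt5a, Brd7, Hdac3, Kdm5c and Hdac2, at 84.9 to 89.5 normalised counts per kilobase. In controls they were Hdac3 at 94.2, Chd4 at 82.0, Kdm5c at 77.3, Hdac2 at 75.6 and Kmt5a at 73.3. Tet2 stood 15th with LPS and 42nd in controls, Kdm6b 43rd with LPS and 54th in controls, and Hdac9 52nd with LPS and 40th in controls.

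The partners and relatives of these families also gave few calls. In all, 10 lists of other chromatin genes (coactivators, corepressor partners, further methyltransferases, Polycomb, SWI/SNF, ISWI and INO80 subunits, methylation readers and histone chaperones) held 211 genes, of which 129 were tested. The test called 3 of them (2.33%, against 5.53% of all records), and their median log2 fold change was -0.04. The nuclear receptor coactivators Ncoa1 and Ncoa3 fell. Ncoa3 had 155 and 143 normalised counts with LPS, against 315 and 301 in controls (log2 fold change -1.05, SE 0.19, edgeR adjusted p = 0.00714). Ncoa1 had 23.1 and 29.3 with LPS, against 68.9 and 56.5 in controls (-1.24, SE 0.29, adjusted p = 0.0287). Both coactivators showed no overlap between groups. Gadd45a, a stress-response gene linked to DNA demethylation, rose on 17 and 11 counts with LPS and 2 and 2 in controls (adjusted p = 0.0382), with both control libraries under the floor of 3 counts. Among the 129 genes DESeq2 called 1, Ncoa3, and limma-voom called 2, Ncoa1 and Ncoa3. Of all records, DESeq2 called 3.84% and limma-voom 5.19%. Gadd45a was given no adjusted p in DESeq2 and lost its call in limma-voom. The 8 other lists had 0 calls in edgeR, DESeq2 and limma-voom, with 0 to 5 genes per list at an unadjusted p below 0.05 in edgeR. Polycomb partners had the most, 5 of 16 in edgeR and limma-voom and 2 of 16 in DESeq2, beside 19 of all 129 genes in edgeR. The share of all records below that p was not counted, so these numbers cannot be set against it. Polycomb partners are named only as the highest of the lists, and no change of that list is read from this.

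**Figure D5:**
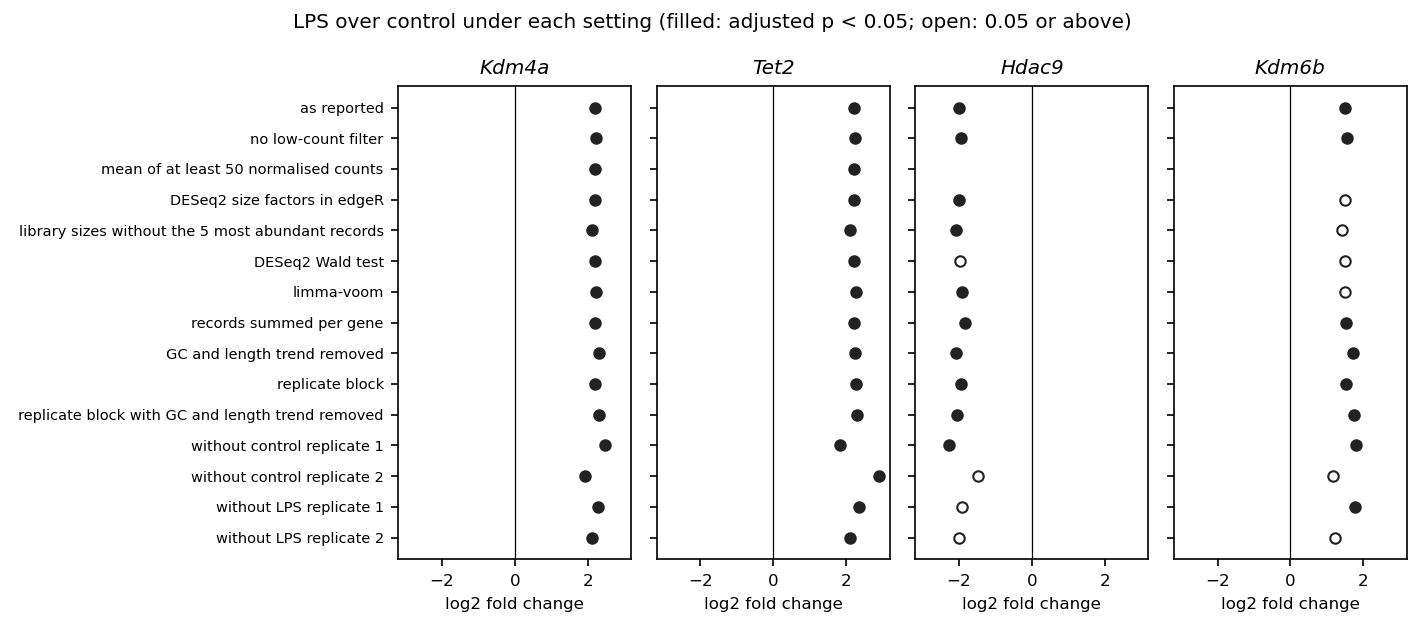
Fitted log2 fold change (LPS over control) of Kdm4a, Tet2, Kdm6b and Hdac9 under each alternative setting, with filled points where the adjusted p is below 0.05. Kdm4a and Tet2 pass in all 14 settings, Hdac9 in 9 of 13 and Kdm6b in 7 of 13.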

How the data were processed

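RNA-seq was done on 4 BV-2 libraries, 2 with LPS and 2 controls, grouped by sample title. The deposited table holds whole-number counts per RefSeq record. It is named as normalised, but the deposited counts sum to unequal totals and take every whole number from 1 to 228 in each library, so they were treated as raw and the test for counts was used. The submitters' processing notes name the build mm10 and, without roles, the tools HTSeq 0.6.1, TopHat2 2.0.10, Trimmomatic 0.33, Cufflinks 2.2.1 and CASAVA 1.8.2.

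Of 32915 records, 32487 matched a RefSeq symbol (GRCm38.p6) and 428 did not. Lengths, GC content and exon bases came from GENCODE vM21 transcripts linked to the records. Records passing edgeR's filterByExpr (minimum count 10) were scaled by TMM and tested without covariates with edgeR 4.0.16 (quasi-likelihood) in R 4.3.3, adjusted by Benjamini-Hochberg over 6981 records. Levels are counts divided by effective library size and multiplied by 3108147. DESeq2 1.42.0 and limma-voom (limma 3.58.1) were alternatives. The common biological coefficient of variation was 15.8%. The scripts were tested on simulated data. Counts carry no molecular identifiers, so floors of 3 counts cover counting error only.

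The members and lists were chosen with earlier results of these data known. Named genes were every called gene, in each family the tested gene with the highest level per kilobase and that with the lowest p, and 27 genes of known roles, of which Kmt2a is not analysed here. That gave 37 genes, 24 of them tested. Any other gene with values was named after its values were seen. The values of some members are not reported here.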

Additional observations from a re-analysis of the deposited data

How the results depend on the processing

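Kdm4a kept its call in all 14 alternatives (log2 fold change 1.92 to 2.47, adjusted p up to 0.00122), as did Tet2 (1.82 to 2.90, up to 0.00827). Kdm6b kept it in 7 of 13 (1.17 to 1.79), losing it with DESeq2 size factors (0.0546), with library sizes without the 5 most abundant records (0.0858), in DESeq2 (0.278), in limma-voom (0.0649), without control replicate 2 (0.0551) and without LPS replicate 2 (0.512). Hdac9 kept it in 9 of 13 (-2.28 to -1.47). None of the 4 called genes changed sign. Of the 24 tested named genes, 14 kept their side of the threshold throughout, and 8 without a call gained one under some setting, mostly without a control library.

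All records gave 386 calls, 69.2% of them higher, against 221 where the mean had to reach 50 normalised counts, 771 with a GC and length trend removed (56.3% higher), 689 with the replicate block (58.2% higher), 1093 with both (50.6% higher) and 204 to 1304 without single replicates. With the replicate block, 3 chromatin genes were higher and 1 lower, as without it (7.27% of the members tested, against 9.87% of all records). With the block and the GC correction, 5 were higher and 2 lower (12.7%, against 15.7%). Where the mean had to reach 50 normalised counts, 2 were higher and 0 lower (6.45%, against 5.37%). Without single replicates, 2 to 6 were higher and 0 to 5 lower. Without control replicate 2, 6 were higher and 5 lower (19.3% of the members tested, against 18.2% of all records), and without control replicate 1, 3 were higher and 5 lower (13.8%, against 15.2%). No chromatin gene was called lower in DESeq2, with a mean of at least 50 or without LPS replicate 1, where 1 had an unadjusted p below 0.05 in each, or without LPS replicate 2, where 3 did. Hdac9, at means of 8.56 with LPS and 33.1 in controls, was not tested where a mean of at least 50 was required. In the other settings the cause was not tested. The median log2 fold change of members stayed between -0.15 and 0.07. Same-numbered libraries had a correlation of deviations of 0.24. The labels tie the numbers to no shared culture or batch, and 2 pairs are too few to show whether they pair the libraries. Low counts kept 48 genes out of the test, 40 of them with 2 or more records. The 95% intervals of Chd2, Chd7, Chd9, Ezh1, Hdac4, Hdac8, Kat8, Kdm3b, Kdm7a, Kdm8, Setd4, Setd7, Sirt7, Smarca2 and Smarcd1 reached 2-fold.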
